A study of Rattus norvegicus with 18 samples.

Results

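The genes described here are 9 genes of the major histocompatibility complex (MHC) class II pathway of the rat: RT1-Ba, RT1-Bb, RT1-Da, RT1-Db1, RT1-DMa, RT1-DMb, RT1-DOa, Cd74 and Ciita. They were chosen by symbol, in the neural retina and in RPE/choroid (the retinal pigment epithelium with the vascular choroid behind it). All 9 were found, among 32285 genes in the retina table and 32552 in the RPE/choroid table, and all 9 passed the expression filter in each comparison. Bulk RNA-seq covered 18 libraries of wild-type female Fischer 344 (F344) rats, an inbred strain used to study aging. In each tissue 3 libraries came from untreated young rats of 4 months, 3 from untreated aged rats of 24 months, and 3 from rats of 24 months that had drunk 8-aminoguanine (8-AG), an inhibitor of purine nucleoside phosphorylase, at 5 mg/kg body weight per day for 8 weeks from 22 months of age. Untreated aged rats drank water without the compound. The comparisons ask what aging changed in each tissue and whether the treated aged rats differed from the untreated ones. Each tissue is a mixture of cell types, so fewer cells of a type and less RNA per cell cannot be told apart.

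MHC class II molecules are pairs of an alpha and a beta chain that show peptides from engulfed proteins to CD4+ T cells. In the rat, RT1-Ba and RT1-Bb encode the chains of the RT1-B molecule, and RT1-Da and RT1-Db1 those of RT1-D. Cd74 encodes the invariant chain, which fills the peptide groove until the molecule reaches the endosome, RT1-DMa and RT1-DMb encode the DM heterodimer that exchanges the last invariant chain fragment for a peptide, and RT1-DOa encodes a chain of DO, which restrains DM. Ciita encodes the class II transactivator, a coactivator that does not bind DNA itself but is recruited by the factors RFX, CREB and NF-Y bound to the X and Y boxes of class II promoters. Microglia, macrophages, dendritic cells and B cells are the usual sources of these transcripts, and the healthy neural retina is known to hold few class II-positive cells while the choroid holds many.

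The promoters below are shown because these shared boxes are where Ciita acts. RefSeq promoter sequences of the GRCr8 build, from 250 bases before to 50 after the transcription start, were given for 7 of the 9 genes. They were searched on both strands for GATTGG (the core of the Y box) and AGCAAC (the core of the X box), which do not overlap each other. Each line gives the 120 bases from -150 to -31 before the start, 5′ to 3′ on the gene's strand, with matches on that strand in capitals.
RT1-Da, chr20:4515265-4515384, plus strand: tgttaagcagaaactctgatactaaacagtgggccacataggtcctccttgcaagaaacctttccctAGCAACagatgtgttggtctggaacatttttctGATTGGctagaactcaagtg
RT1-Db1, chr20:4560193-4560312, minus strand: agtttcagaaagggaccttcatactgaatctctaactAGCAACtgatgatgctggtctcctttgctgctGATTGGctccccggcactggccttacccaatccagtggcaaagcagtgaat
RT1-DOa, chr20:4758454-4758573, minus strand: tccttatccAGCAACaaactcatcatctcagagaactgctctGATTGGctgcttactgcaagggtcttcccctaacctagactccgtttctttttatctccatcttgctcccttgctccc
RT1-Ba, chr20:4576907-4577026, plus strand: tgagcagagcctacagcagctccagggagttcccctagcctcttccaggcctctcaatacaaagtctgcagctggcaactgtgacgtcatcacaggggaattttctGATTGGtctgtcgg
RT1-Bb, chr20:4604149-4604268, minus strand: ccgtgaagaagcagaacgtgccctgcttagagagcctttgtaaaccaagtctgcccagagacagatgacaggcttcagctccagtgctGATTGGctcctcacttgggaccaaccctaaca
RT1-DMa, chr20:4712366-4712485, minus strand: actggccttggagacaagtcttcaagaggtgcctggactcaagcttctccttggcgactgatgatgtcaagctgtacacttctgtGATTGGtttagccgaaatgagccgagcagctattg
GATTGG lay upstream of the start on the gene's strand in 6 of the 7 promoters, between -108 in RT1-DOa and -44 in RT1-Ba, and AGCAAC in 4, with Cd74 having AGCAAC at -71 and no GATTGG in its entry. In RT1-Da, RT1-Db1 and RT1-DOa the X core came first, 26 or 27 bases before the Y core. Over all 33469 promoters of the table, 14.8% held GATTGG and 14.7% held AGCAAC on either strand, and 19 (0.0568%) held AGCAAC followed by GATTGG after 15 to 35 bases on the gene's strand. Those 19 also include the class II genes RT1-DOb, RT1-Db2 and RT1-Ha. A match of letters is a description and not a measured binding site.

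Values are CPM (counts scaled by library size and TMM factors) over the 9 libraries of a tissue, in the order of libraries 1, 2 and 3 of a group, and numbers carry no order. Retina libraries held 12283458 to 15644346 counts and RPE/choroid libraries 28573828 to 48203050. The tissues were counted and scaled separately, so levels of the 9 genes are not compared between them. Summed rod genes are set across tissues below only as a check of the labels. Levels of different genes are not compared because the values are not per length. Marker genes of the labelled tissue were high in all libraries but 1: 10 rod genes summed to 34804 to 60306 CPM in retina, and 8 RPE genes to 9475 to 18088 CPM in 8 RPE/choroid libraries. Rod genes varied among those 8, at 17289, 19092, 11181 and 16000 CPM in young libraries 1 and 2 and aged libraries 1 and 3. They were at 1903, 584, 841 and 808 CPM in young library 3, aged library 2 and treated libraries 2 and 3. Without 8-AG library 1 the treated libraries are thus all poor in rod genes, while the young and aged ones are mixed. RPE/choroid 8-AG library 1 had 6002 CPM of the RPE genes and a rod sum within the retina range, which goes against its label, and values without it are given beside its results. A pair of libraries stood apart. Aged retina library 2 had the highest class II levels of the 9 and the highest summed erythrocyte genes, 361 CPM against 76.3 and 84.2 CPM in the other aged libraries. RPE/choroid 8-AG library 1 had the lowest class II levels, with summed rod genes of 53315 CPM against 584 to 19092 CPM in the other 8 libraries and summed surface epithelium keratins of 1274 CPM against 2.61 to 94.4 CPM. Young RPE/choroid libraries 1 and 2 carry the same number with the letters L and R, and so do aged libraries 1 and 2, without a statement that they are both eyes of 1 rat. The labels give total RNA for the 3 treated retina libraries and polyA RNA for the others, so in retina this label and the treatment cannot be told apart. The labels do not say which libraries came from separate rats, so p-values measure the spread between libraries, which may be technical.

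In aged retina the levels of the class II chains, Cd74 and the DM genes lay above those of young retina in every library, while those of Ciita and RT1-DOa lay below. After adjustment over all genes, RT1-DMb and Ciita passed the test. Cd74 (ENSRNOG00000018735) was at 1.46, 1.13 and 0.743 CPM in the young libraries and at 16.3, 94.9 and 10.8 CPM in the aged ones. The lowest aged library was far above the highest young one, and library 2 was 7.01 times the mean of the other aged libraries. RT1-Da (ENSRNOG00000032844) went from 0.308, 0.226 and 0.338 CPM in young to 4.52, 38.2 and 3.80 CPM in aged retina. RT1-Db1 (ENSRNOG00000033215), its partner chain, was at 0.154, 0.150 and 0.0675 CPM in young and at 3.90, 20.8 and 1.52 CPM in aged retina. These young values are 2, 2 and 1 counts, and the pooled counts per total were 82.4 times higher in aged than in young retina, with an exact 95% interval of 35 to 255, and 23.5 times higher without aged library 2, with an interval of 9.60 to 74.4. The intervals cover counting error only.

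The RT1-B chains had the same order of aged libraries. RT1-Ba (ENSRNOG00000000451) was at 0.539, 0.376 and 0.203 CPM in young and at 3.12, 21.1 and 2.56 CPM in aged retina. RT1-Bb (ENSRNOG00000032708) was at 1.31, 1.05 and 0.945 CPM in young and at 3.51, 17.7 and 2.42 CPM in aged retina. No aged library of these 5 genes overlapped the young ones, and in each of them the aged spread was set by library 2. RT1-Da, RT1-Db1 and RT1-Ba were low enough in young retina that they passed the expression filter through the aged libraries.

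**Figure D1:**
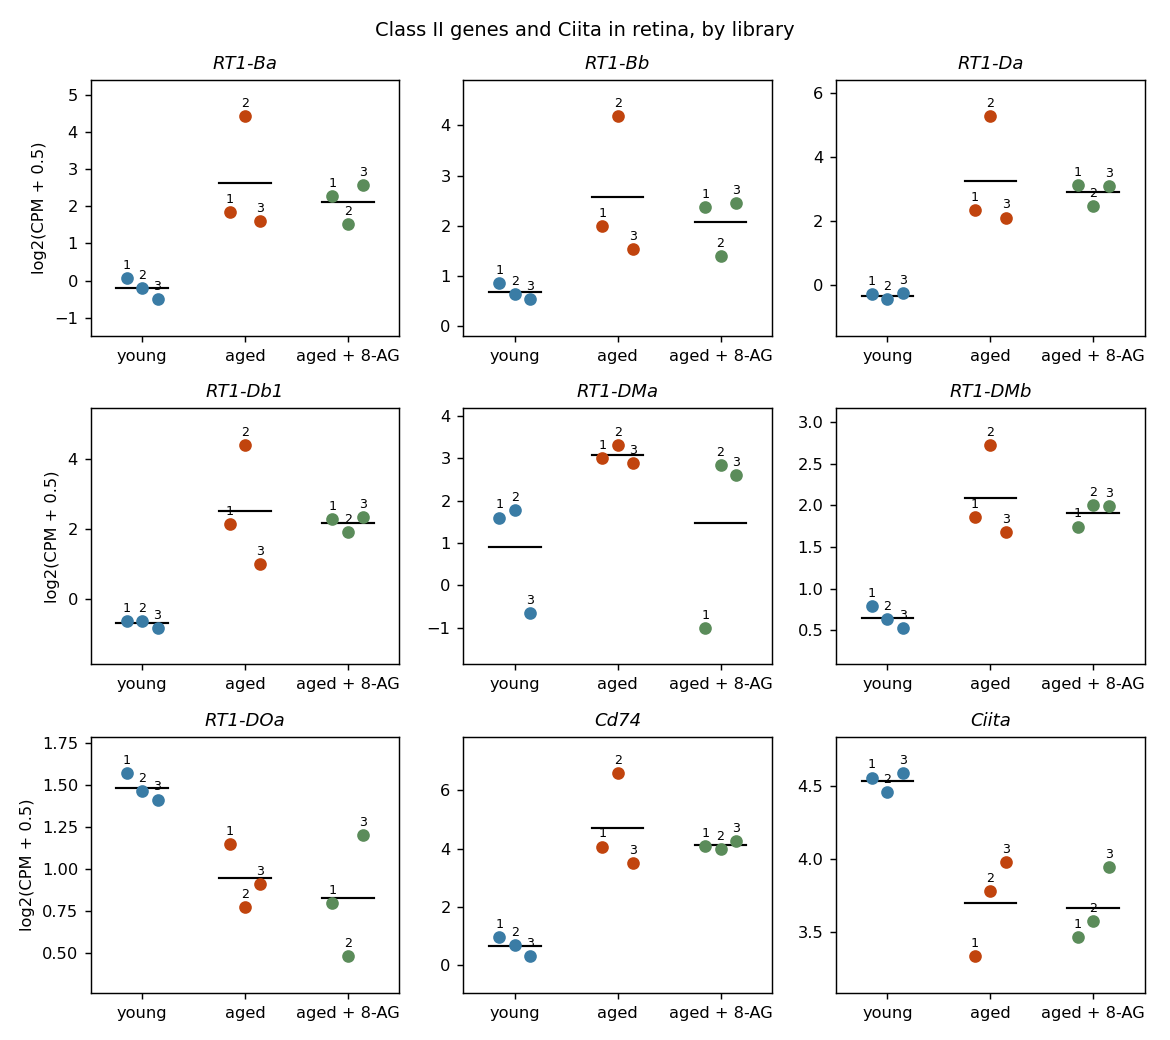
Each panel plots log2(CPM + 0.5) of a gene in the 9 retina libraries. Points are libraries with their replicate number, and bars are group means on that scale. The class II chains and Cd74 sit higher in the aged and treated libraries, aged library 2 is the highest point for 7 of the 9 genes, and Ciita and RT1-DOa sit lower.

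Tested with edgeR over all 14588 genes, 2 of the 9 genes had an adjusted p under 0.05 in aged against young retina, where 14.5% of all genes tested did: RT1-DMb was higher, where 7.29% of genes were, and Ciita lower, where 7.26% were. The study's rule for differentially expressed genes (DEGs) is a change of more than 1.5-fold and a P under 0.05, taken here before adjustment. By that rule all 9 were called, against 8.84% of genes tested: 7 were higher, where 6.45% of genes were, and 2 were lower, where 2.39% were. RT1-Da, RT1-Db1 and RT1-Ba, which had 1 to 7 counts in each young library and entered through the aged ones, had to differ to be tested, so these counts and the median of the 9 describe the genes and are no support for a rise. The groups did not overlap for any of the 9, which held for 18.0% of genes with aged higher and 17.5% with aged lower. The median log2 fold change of the 9 was 2.84, beside 0.0019 over all genes tested. The log2 fold change was 5.21 for Cd74 (standard error 1.41, edgeR adjusted p = 0.093). It was 5.70 for RT1-Da (standard error 1.68, adjusted p = 0.11) and 6.08 for RT1-Db1 (standard error 1.71, adjusted p = 0.094). RT1-Ba had 4.59 (standard error 1.36, adjusted p = 0.11) and RT1-Bb 2.84 (standard error 1.01, adjusted p = 0.15).

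The tests of these 5 genes turn on aged library 2. Without it, 7 of the 9 genes had an adjusted p under 0.05, where 10.4% of all genes did, with RT1-Da, RT1-Db1 and RT1-Ba again entering through the aged libraries, and the 5 genes had smaller changes with smaller errors. On the log2 scale Cd74 was then at 3.61 (standard error 0.28, edgeR adjusted p = 4.5e-05) and RT1-Da at 3.79 (standard error 0.35, adjusted p = 7.8e-05). RT1-Db1 was at 4.36, RT1-Ba at 2.92 and RT1-Bb at 1.42, with adjusted p-values of 9.8e-04, 0.0012 and 0.019. RT1-DMa and RT1-DOa had adjusted p-values of 0.35 and 0.29 in that fit.

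**Figure D2:**
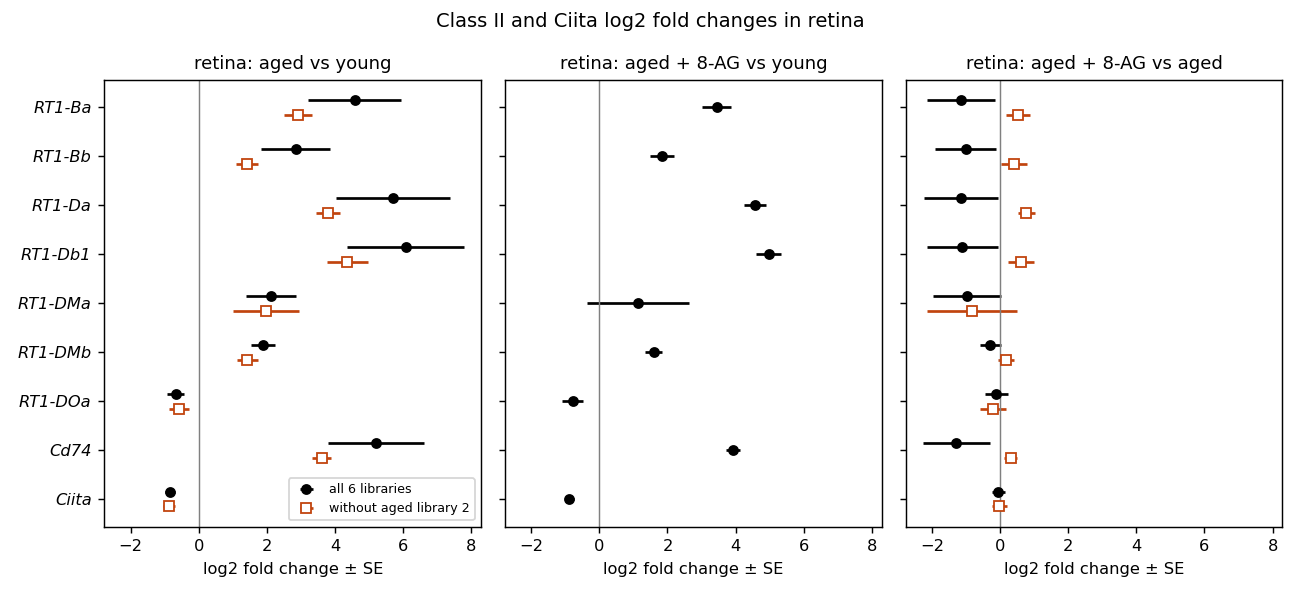
Log2 fold changes with standard errors of the 9 genes in the 3 retina comparisons, from edgeR fits of 6 libraries (filled) and, where aged libraries enter, of 5 libraries without aged library 2 (open). Leaving out that library narrows the errors of Cd74 and the 4 chains in aged against young retina and moves Cd74 in treated against untreated aged retina from -1.28 to 0.32.

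The DM genes share reads with near-identical copies, which bears on their single values. RT1-DMa (ENSRNOG00000047864) was at 2.54, 2.93 and 0.135 CPM in young, 7.56, 9.50 and 6.97 CPM in aged and 0, 6.68 and 5.61 CPM in treated retina. The 0 in treated library 1, which allows up to 0.239 CPM by a count of 3, and the low value in young library 3 came with 83 and 37 counts in the copy ENSRNOG00000047854, which held at most 1 count in the other 7 libraries. Summed over gene and copy, the level was 2.70 ± 0.205 CPM (SD, n = 3) in young, 8.03 ± 1.29 CPM in aged and 6.25 ± 0.518 CPM in treated retina. On the log2 scale the sum was 1.57 higher in aged than in young retina (standard error 0.18, edgeR adjusted p = 5.9e-04), where the gene alone had 2.12 (standard error 0.74, adjusted p = 0.14).

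RT1-DMb (ENSRNOG00000051002) divided its reads with ENSRNOG00000049491 in every retina library, with 50% to 58.7% of the pair's counts in the gene. It was at 1.23, 1.05 and 0.945 CPM in young and 3.12, 6.12 and 2.69 CPM in aged retina, with no overlap. Its log2 fold change was 1.89 (standard error 0.36, edgeR adjusted p = 0.0070), and that of the sum with the copy 1.93 (standard error 0.33, adjusted p = 0.0064). Summing gene and copy was chosen after these counts were seen.

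Ciita (ENSRNOG00000002659), the transactivator of the genes above, fell in aged retina. It was at 23.0, 21.4 and 23.5 CPM in young and 9.59, 13.3 and 15.3 CPM in aged retina, from 123 to 348 counts a library, so that the highest aged library lay below the lowest young one. The log2 fold change was -0.83 (standard error 0.15, edgeR adjusted p = 0.0059) and was -0.86 without aged library 2. In aged library 2, where the class II chains were highest, Ciita lay between the other aged libraries. Gene counts do not separate the transcripts that start at the different Ciita promoters.

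RT1-DOa (ENSRNOG00000026762), the gene of the DM-restraining molecule, was at 2.46, 2.26 and 2.16 CPM in young and 1.72, 1.21 and 1.38 CPM in aged retina, from 19 to 32 counts a library. Its log2 fold change was -0.68 (standard error 0.26, edgeR adjusted p = 0.11). The groups did not overlap and the adjusted p missed the threshold.

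In 8-AG-treated aged retina, set against young retina, the class II genes were higher as well, with closer replicates. Cd74 was at 16.4, 15.2 and 18.8 CPM, RT1-Da at 8.26, 4.97 and 8.02 CPM, and RT1-Db1 at 4.40, 3.26 and 4.61 CPM in the treated libraries. RT1-Ba was at 4.32, 2.36 and 5.48 CPM, RT1-Bb at 4.71, 2.12 and 4.94 CPM and RT1-DMb at 2.86, 3.50 and 3.47 CPM. Each of these 6 genes lay above all young libraries. Ciita was at 10.6, 11.4 and 14.9 CPM, below all of them.

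By edgeR 7 of the 9 genes had an adjusted p under 0.05, against 14.9% of the 14542 genes tested: 6 were higher, where 7.78% of genes were, and Ciita was lower, where 7.10% were. RT1-Da, RT1-Db1 and RT1-Ba, 3 of the 6, again passed the expression filter through the group where they were high, so the counts are descriptions here too. The DEG rule called 8, RT1-DOa added, against 8.58% (6 higher against 6.50%, 2 lower against 2.08%), and 6 genes lay above and 2 below all young libraries without overlap, against 17.7% and 17.9% of genes. The log2 fold change was 3.92 for Cd74 (standard error 0.22, adjusted p = 1.4e-05), 4.56 for RT1-Da (standard error 0.32, adjusted p = 4.7e-05) and 4.97 for RT1-Db1 (standard error 0.38, adjusted p = 6.2e-05). RT1-Ba was at 3.44, RT1-Bb at 1.83 and RT1-DMb at 1.60, with adjusted p-values of 9.5e-04, 0.0082 and 0.0030. RT1-DMa was at 1.15 (standard error 1.5, adjusted p = 0.68) alone and at 1.21 (standard error 0.18, adjusted p = 0.0022) summed with its copy. Ciita was at -0.88 (standard error 0.13, adjusted p = 0.0026). RT1-DOa, at 1.23, 0.896 and 1.80 CPM, was at -0.79 (standard error 0.30, adjusted p = 0.11). The median of the 9 was 1.83, beside 0.0047 over all genes. When all 3 groups were fitted together, so that the spread of the aged libraries entered, RT1-DMb and Ciita, 2 of the 9, had an adjusted p under 0.05, where 14.7% of all genes did. Keratins of the surface epithelium also differed between these groups: their list summed to 8.64 to 18.6 CPM in treated retina and 1.22 to 3.46 CPM in young retina, and Krt5 and Krt13 were called higher, 2 of 3 tested, where 7.78% of all genes were, after entering through the treated libraries from 3 to 11 counts in the young ones. Their part in the class II values was not tested. The comparisons of aged and of treated with young retina share the 3 young libraries.

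No difference between treated and untreated aged retina passed the test for any of the 9 genes. By edgeR 0 of the 9 had an adjusted p under 0.05, where 0.0205% of 14631 genes did, 0 met the DEG rule, where 0.957% did, and 0 had an unadjusted P under 0.05, where 3.67% did. DESeq2 and limma also called 0. The log2 fold changes ran from -1.28 for Cd74 (standard error 0.98, edgeR adjusted p = 1.0) to -0.05 for Ciita (standard error 0.19), with a median of -1.01 beside -0.0031 over all genes. The 3 treated Cd74 values lay between the lowest and the highest untreated aged library. The sign of the change rests on aged library 2 for Cd74, RT1-DMb and the 4 chains, 6 of the 9 genes: without it the log2 fold change of Cd74 was 0.32 (standard error 0.19) and that of RT1-Da 0.77 (standard error 0.26, unadjusted P = 0.014, adjusted p = 0.74), and the median of the 9 was 0.32. RT1-DMa summed with its copy was -0.37 on the log2 scale (standard error 0.17, unadjusted P = 0.054), with treated libraries at 6.41, 6.68 and 5.68 CPM and aged ones at 7.56, 9.50 and 7.04 CPM, which did not overlap. RT1-DMa was the gene of the 9 without overlap in this comparison, where 4.18% of genes lay lower and 4.58% higher in treated retina without overlap.

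In RPE/choroid the class II genes were measured in all groups, and no difference with age or treatment passed the test. Cd74 was at 3331, 3993 and 5541 CPM in young, 3512, 5921 and 3568 CPM in aged and 412, 5042 and 4221 CPM in treated libraries. RT1-Da was at 822, 930 and 1328 CPM in young, 955, 1443 and 826 CPM in aged and 102, 1177 and 1027 CPM in treated libraries. RT1-Ba ranged over 354 to 596 CPM, RT1-Bb over 734 to 1530 CPM and RT1-Db1 over 664 to 1106 CPM in 8 libraries, and were at 44.6, 91.1 and 71.7 CPM in treated library 1. RT1-DOa was at 6.14 to 13.5 CPM in 8 libraries and at 0.404 CPM in treated library 1. RT1-DMa was at 1.48 to 2.88 CPM in 8 libraries and at 1.24 CPM in treated library 1, a small gap. RT1-DMb was at 1.32 to 1.96 CPM and at 0.311 CPM there, and summed with its copy at 2.18 to 4.18 CPM and at 1.21 CPM there. The near-copies took a changing share here too, with 61.1% to 79.8% of the pair's counts in RT1-DMa and 25.6% to 61.8% in RT1-DMb, where the lowest share was that of treated library 1. Ciita was at 17.1, 15.9 and 25.9 CPM in young, 20.8, 23.2 and 14.2 CPM in aged and 19.2, 18.5 and 11.9 CPM in treated libraries. All groups overlapped for all 9 genes in the 3 comparisons. Over all genes, 3.01% lay higher and 4.16% lower without overlap when aged was set against young, 2.27% and 1.61% when treated was set against aged, and 2.89% and 3.03% when treated was set against young. For aged against young the largest of the 9 log2 fold changes was 0.17 for RT1-DMb (standard error 0.30) and the smallest -0.12 for RT1-Bb (standard error 0.35), with a median of -0.023 beside 0.018 over all genes. For Cd74 it was 0.01 (standard error 0.32, edgeR adjusted p = 1.0).

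**Figure D3:**
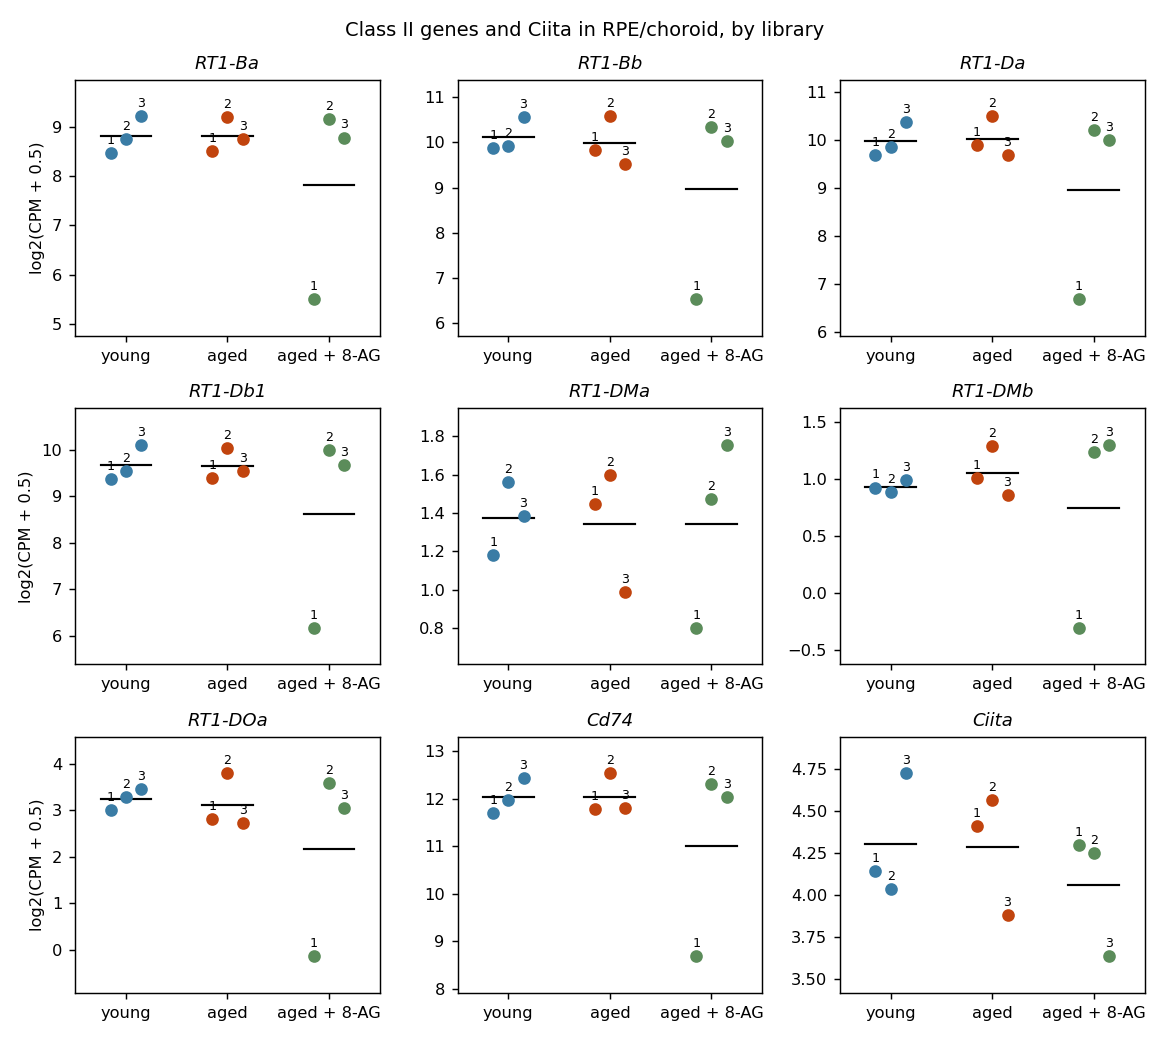
Each panel plots log2(CPM + 0.5) of a gene in the 9 RPE/choroid libraries, with replicate numbers at the points and bars at group means on that scale. Treated library 1 lies lowest for every gene except Ciita, and among the other 8 libraries the groups overlap, except for RT1-DMb between treated and young.

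With edgeR, 0 of the 9 genes and 0% of all genes had an adjusted p under 0.05 in any of the 3 RPE/choroid comparisons, by the DEG rule 0 of the 9 were called against 1.35% (aged against young), 1.65% (treated against aged) and 1.99% (treated against young) of genes, and DESeq2 called 0 of the 9 as well. At an unadjusted P under 0.05 there were 0 of the 9 against 2.13%, 1.69% and 2.10% of genes. In treated against aged RPE/choroid the log2 fold changes of the 9 ran from -0.48 for RT1-Da (standard error 0.86) to 0.05 for RT1-DMa (standard error 0.46), and in treated against young from -0.49 for RT1-Bb (standard error 0.91) to 0.02 for RT1-DMa (standard error 0.42).

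Treated library 1 was the lowest of the 9 libraries for 8 of the 9 genes, narrowly so for RT1-DMa. The mean of the other treated libraries was 11.2 times its level for Cd74, 12.8 times for RT1-Db1 and 23.9 times for RT1-DOa, which was at 0.404 CPM against 11.5 and 7.83 CPM. Ciita was not low there. In the same library Ptprc, the pan-leukocyte gene, was at 8.33 CPM against 43.0 to 70.3 CPM in the other 8, Aif1 of macrophages and microglia at 36.8 against 128 to 256 CPM, and Cd3e of T cells at 1.55 against 10.1 to 27.5 CPM. The part of these differences in the class II values was not tested. Without treated library 1 the median log2 fold change of the 9 was 0.15 against aged and 0.12 against young RPE/choroid, and 0 of the 9 were called. With the mean log2 level of the rod genes as a term in the fit, the median of the 9 went from -0.38 to -1.25 against aged and from -0.40 to -1.70 against young RPE/choroid, and 0 of the 9 had an adjusted p under 0.05.

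The aging change was then compared between tissues in 1 model of 12 libraries, with the change in retina minus that in RPE/choroid as the tested term. By edgeR 0 of the 9 genes had an adjusted p under 0.05, where 27 of 16792 genes did (0.161%), and 8 had an unadjusted P under 0.05, where 8.25% of genes did. By limma voom 0 of the 9 and 6 of all genes had an adjusted p under 0.05. The differences in log2 fold change were 6.16 for RT1-Db1 (standard error 1.33, edgeR adjusted p = 0.10), 5.67 for RT1-Da (standard error 1.25, adjusted p = 0.11) and 5.20 for Cd74 (standard error 1.07, adjusted p = 0.089), and -0.80 for Ciita (standard error 0.36, adjusted p = 0.59). RT1-DOa, the remaining gene, was at -0.60 (standard error 0.45, unadjusted P = 0.21). Without aged retina library 3, RT1-Db1 passed at an adjusted p under 0.05.

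Of 10 genes of the factors that recruit Ciita or work with it, 8 were found and 7 tested in retina, and 1 passed in aged against young retina, a share near the 14.5% of all genes. That gene, Nfyb, encodes a subunit of NF-Y and fell by 0.37 on the log2 scale (standard error 0.07, edgeR adjusted p = 0.0055). The other 6 had log2 fold changes from -0.26 to 0.15 and adjusted p-values of 0.097 or more: Creb1 -0.26, Crebbp -0.17, Nfyc -0.05, Rfx5 0.04, Rfxank 0.07 and Nfya 0.15. In treated against young retina 1 of the 7 passed, where 14.9% of all genes did: Crebbp, a coactivator, at -0.24 (standard error 0.06, adjusted p = 0.027), while Nfyb was at -0.29 (adjusted p = 0.099). Rfxap, the remaining RFX subunit, was listed at 0 in 8 retina libraries and at 8.36 CPM in aged library 3. In RPE/choroid 8 were tested and 0 passed in any comparison.

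Interferon-gamma is the best known inducer of Ciita, and part of its signalling genes rose in aged retina. Of 9 listed, 8 were tested and 5 had an adjusted p under 0.05, all higher, against that same 7.29% of all genes. Irf8, an interferon-responsive transcription factor of myeloid cells, rose by 1.88 on the log2 scale (standard error 0.34, edgeR adjusted p = 0.0061). Irf1, another interferon-responsive transcription factor, rose by 0.80 and the receptor chain gene Ifngr2 by 0.39. In treated against young retina 4 of the 8 passed, all higher, where 7.78% of all genes were, Irf8 at 1.68 among them, and 0 passed in treated against aged retina or in RPE/choroid.

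Cathepsin genes from a list for class II loading and turnover also rose in part. Of 11 listed, 9 were tested in retina, and March1 and March8 were not found. In aged against young retina 4 passed, all higher and all cathepsin genes, where 7.29% of all genes were. Ctsz, a cathepsin, rose by 2.18 (standard error 0.18, edgeR adjusted p = 1.3e-04) and Ctss, the cathepsin that trims the invariant chain, by 2.03 (standard error 0.23, adjusted p = 0.0030). Ctsh rose by 0.83 and Ctsd by 0.33. The comparison of treated with young retina called 4, all higher, where 7.78% of all genes were, Ctsz at 1.89 and Ctss at 1.84 the largest. Of the co-stimulation and checkpoint ligands 4 of 6 were tested. In aged against young retina 1 of the 4 was called higher, where 7.29% of all genes were. It was Cd274, which encodes the inhibitory ligand PD-L1, at 0.80 (standard error 0.21, adjusted p = 0.030). Of 4 other class II genes, 3 were found and 0 passed the filter in retina, where RT1-DOb had at most 9 counts a library, RT1-Db2 at most 1 and RT1-Ha 0 in each.

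Markers of microglia and macrophages, which are among the usual sources of class II, were also higher in aged and treated retina. Of 13 microglia and macrophage genes listed 12 were found, and all 10 tested rose in aged retina, while all 12 were tested and rose in treated against young retina, where 7.29% and 7.78% of all genes were called higher. Tyrobp, and in the treated comparison also Cd68 and Trem2, had 1 to 10 counts in the young libraries and entered through the older ones, so the counts are descriptions. C1qb, a complement subunit of microglia, rose in aged retina by 2.60 on the log2 scale (standard error 0.24, edgeR adjusted p = 4.3e-04), Aif1 by 2.08, Ptprc by 1.93, Cx3cr1 by 1.09 and P2ry12, a homeostatic microglia gene, by 1.02. The 12 genes summed to 41.0 to 43.0 CPM in young, 123 to 213 CPM in aged and 140 to 148 CPM in treated retina. The summed RT1-Ba, RT1-Bb, RT1-Da, RT1-Db1 and Cd74 were at 2.30 to 3.77, 21.1 to 193 and 27.9 to 41.8 CPM. The ratio of the class II sum to the microglia sum was thus 0.0560 to 0.0878 in young, 0.171, 0.205 and 0.905 in aged and 0.188 to 0.298 in treated retina, so that it was higher in every aged and treated library than in any young one. In RPE/choroid the ratio was 3.93 to 5.38 in 8 libraries and 1.60 in treated library 1. No share of the class II change was assigned to these cells, which was not tested.

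**Figure D4:**
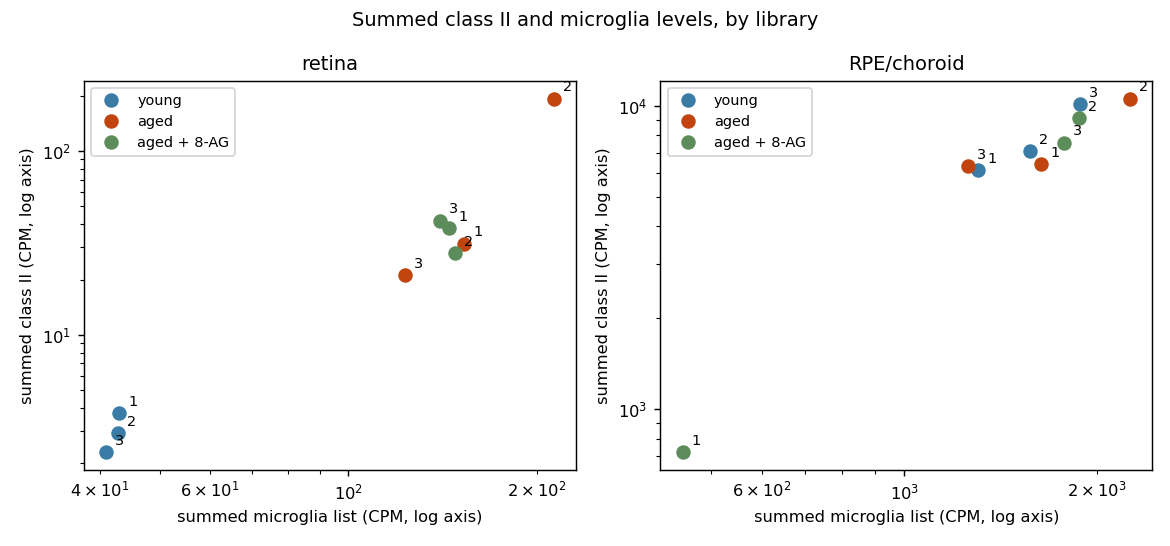
Summed CPM of RT1-Ba, RT1-Bb, RT1-Da, RT1-Db1 and Cd74 against summed CPM of the microglia and macrophage list in each library, on log axes, with replicate numbers. Young retina libraries lie at 2.30 to 3.77 CPM of class II, aged library 2 at 193 CPM, and RPE/choroid treated library 1 lies apart at 721 CPM beside 6117 to 10536 CPM.

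Markers of other class II-bearing cells were scarce in retina. Of 6 tissue macrophage genes 3 were tested in aged against young retina. F13a1 was called higher, at 1.93, where 7.29% of all genes were, but it entered through the aged libraries from as few as 7 counts in young retina. Mrc1 was at 0.55 (adjusted p = 0.66). The 6 genes summed to 1.55 to 3.23 CPM in young, 4.35 to 8.79 in aged and 6.44 to 9.22 CPM in treated retina. In treated against young retina the 4 tested were called higher, where 7.78% of all genes were, Lyve1 at 2.29 and Mrc1 at 1.88 among them, but Lyve1, Mrc1 and F13a1 had 1 to 12 counts in the young libraries and entered through the treated ones. Of the dendritic cell list 4 of 9 genes found were tested and 0 passed in aged against young retina, with the summed list at 11.8 to 15.4 CPM in all 9 libraries, and in treated against young retina 1 of 3 tested, Clec10a, rose by 1.12, against that same 7.78%. The B cell gene Ms4a1 had 0 counts in every retina library, and the B cell list summed to 0.382 to 1.40 CPM. Of 7 T cell genes Cd4, which myeloid cells of the rat also express, was tested and rose by 1.48 in aged retina (standard error 0.20, edgeR adjusted p = 0.0013), and Cd3e had at most 0.244 CPM. Of the erythrocyte genes 2 were tested in aged against young retina and 0 passed (lowest adjusted p = 0.16), with a median change of 2.31 on the log2 scale, and Hbb was at 37.2, 175 and 41.8 CPM in the aged libraries, highest in library 2, and at 12.3 to 21.3 CPM in the young ones. Of 10 rod genes 8 fell in aged against young retina, with a list median of -0.70 on the log2 scale, and 6 fell in treated against young retina, with a median of -0.50, where 7.26% and 7.10% of all genes were called lower. Of 8 RPE genes 0 were called higher and 1, Rlbp1, which Mueller glia also express, lower in each of these 2 comparisons, with list medians of 0.88 in aged and 1.56 in treated against young retina. They summed to 336 to 431 CPM in young, 265 to 451 CPM in aged and 389 to 574 CPM in treated retina, and aged library 2 was the lowest of the 9. Of 6 Mueller glia genes 2 were called higher and 2 lower in aged against young retina, where 7.29% and 7.26% of all genes were. The same counts held in treated against young retina, where 7.78% and 7.10% of all genes were. The part of rods, blood, RPE and Mueller glia in the class II values was not tested.

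The genes whose levels followed the class II chains most closely over the 9 retina libraries were ranked by Pearson r with the mean log2(CPM + 0.5) of RT1-Ba, RT1-Bb, RT1-Da, RT1-Db1 and Cd74, among 14068 other genes with a mean of at least 1 CPM. The 10 highest were Rnaset2 (0.988), Irf8 (0.982), Mgme1 (0.978), Fxyd5 (0.977), Laptm5 (0.977), Fermt3 (0.974), Pnp (0.974), Kcnf1 (0.971), Lilrb3 (0.970) and RGD1306063 (0.969). Irf8 was at 1.46 to 1.69 CPM in young, 4.29, 9.18 and 4.21 CPM in aged and 4.48 to 5.88 CPM in treated retina. Pnp encodes purine nucleoside phosphorylase, the enzyme that 8-AG inhibits, and went over a narrow range, from 20.4 to 20.9 CPM in young to 24.4, 26.8 and 22.4 CPM in aged and 23.8 to 25.2 CPM in treated retina. The libraries share the low young levels and the high level of aged library 2, and 3 of the 10 genes (Rnaset2, Irf8 and Laptm5) stayed among the 10 highest without that library.

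In RPE/choroid the 10 highest of 14586 genes were Ecm1, Crtapl1, Farp1, Eva1b, Marveld1, Ifitm2, Gmfg, Shisa5, Tagln2 and Ninj1, with r from 0.996 to 0.998. Without treated library 1, Ecm1 stayed among the 10 highest, 1 of the 10. The lists of the tissues had no gene in common.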

How the data were processed

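RNA-seq of 9 retina and 9 RPE/choroid libraries, 3 per group, was analysed from gene tables. The submitters' processing notes name Bowtie2 2.1.0, RSEM 1.2.15, edgeR and the Rnor_6.0 build. The strand setting and the counting program for RPE/choroid were not given in the sources used here. The authors deposited RSEM expected counts for retina, which were rounded here, and raw counts for RPE/choroid. They also deposited retina CPM scaled by TMM factors (a signal without an absolute unit), used for gene symbols and as an alternative. The authors' columns of fold changes and p-values were not used. The protocol describes poly-A capture, enriched for full-length molecules in RPE/choroid, while the molecule label of the 3 treated retina libraries is total RNA.

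Genes were filtered (filterByExpr), scaled by TMM and tested with the quasi-likelihood test of edgeR 4.0.16 in R 4.3.3, on the 6 libraries of each comparison, with Benjamini-Hochberg adjustment over all genes tested. The tissue difference was an interaction term over 12 libraries. A gene was called at an adjusted p under 0.05. The members and lists were chosen with earlier results of these data known, so list counts are descriptions. The genes named are all 9 members, called or leading genes of each list, and the 10 genes most like the class II chains. Alternatives used DESeq2 1.42.0, limma 3.58.1, other filters and scalings, and left out each library. Totals of 12283458 to 48203050 counts limit genes of few counts, and count intervals and floors of 3 counts cover counting error only. Scripts were tested on simulated counts.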

Additional observations from a re-analysis of the deposited data

How the results depend on the processing

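The number of class II genes called in retina varied with the method and the libraries, and no called gene changed sign under any alternative run. In aged against young retina 2 of the 9 genes were called (14.5% of all genes), against 6 with DESeq2 (9.22%), 6 with all 3 groups in 1 fit (13%), 7 with limma-trend on the deposited CPM (13.9%) and 2 to 7 leaving out 1 library (7 without aged library 2, 10.4%). The DEG rule gave 9 (8.84%), against 4 with limma voom and quality weights (8.22%) and 5 with at least 10 counts in every library (of 5 left to test, 7.30%). Leaving out 1 library it gave 2 to 8. It gave 2, 3 and 4 without young libraries 1, 2 and 3 (8.89%, 8.91% and 9.11% of all genes) and 8 without aged library 1 (9.23%). In treated against young retina 7 were called (14.9%), against 4 of the 5 left with at least 10 counts (14.7%) and 2 with all 3 groups in 1 fit (14.7%), and the DEG rule gave 8 (8.58%), against 5 with at least 10 counts (7.20%). In treated against aged retina the DEG rule gave 0 to 1 leaving out 1 library (1, RT1-Da, without aged library 2, 1.73% of all genes). With the rod score as a term, the DEG rule gave 1 of the 9 in treated against aged (6.23% of all genes) and 6 in treated against young RPE/choroid (18.7%), against 0 without it. The tissue difference called 0 to 1 leaving out 1 library (1, RT1-Db1, without aged retina library 3, where 0.142% of all genes were called). Of the 10 genes most like the class II chains, 3 in retina and 3 in RPE/choroid stayed by deviations from group means, and 3 and 1 without the library that stands apart, an alternative chosen, like the sums with near-copies, after the data were seen. The causes were not tested.

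With 3 libraries a group, the data do not settle whether the replicate numbers pair the libraries. Correlations of deviations between same-numbered libraries ran from -0.294 to 0.236 in retina and from -0.605 to 0.692 in RPE/choroid. In treated and aged retina 6 of 6 libraries correlated best with their own number. With the replicate block 5 genes were called in aged against young retina (11.6% of all genes), and at an adjusted p under 0.05 the counts of the other comparisons did not change. By the DEG rule the block gave 8 in aged against young retina (8.68% of all genes). In the tissue difference it gave 7 (6.08%) in place of 8 (6.78%), with Ciita at an unadjusted P of 0.060. In treated against aged retina the block moved the median log2 fold change of the 9 from -1.01 to -0.47.

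Signs of genes that were not called varied. With limma voom, treated against aged retina gave log2 fold changes of 0.23 for RT1-Db1 and 0.056 for RT1-DMb. With limma voom, treated against aged RPE/choroid gave 0.10 for RT1-Ba, 0.11 for RT1-Bb, 0.10 for RT1-Db1, 0.24 for RT1-DMb, 0.14 for RT1-DOa and 0.088 for Cd74, and treated against young gave 0.054, 0.010, 0.068, 0.071, 0.39 and 0.051 for RT1-Ba, RT1-Bb, RT1-Da, RT1-Db1, RT1-DMb and Cd74. In treated RPE/choroid RT1-DMa was at -0.072 against aged and -0.24 against young with the rod score as a term and at -0.046 against young with the replicate block, and RT1-DMb summed with its copy at 0.24 against young. In aged against young RPE/choroid RT1-Ba was at 0.0041 with RLE factors, 0.0057 with all 3 groups and 0.0049 with the replicate block, RT1-Da at -0.14 with libraries of a shared number summed and -0.094 with the rod score, RT1-DMa at 0.034 with its copy, Ciita at 0.21 with limma voom, and Cd74 at -0.038 with limma voom, -0.00045 without a filter, -0.00099 with the replicate block, -0.17 with libraries summed and -0.15 with the rod score.

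Leaving out 1 library, treated against aged retina gave -1.58 to 0.53 for RT1-Ba, -1.44 to 0.42 for RT1-Bb, -1.60 to 0.77 for RT1-Da, -1.60 to 0.61 for RT1-Db1, -0.51 to 0.18 for RT1-DMb, -0.42 to 0.094 for RT1-DOa, -1.73 to 0.32 for Cd74 and -0.21 to 0.10 for Ciita. Aged against young RPE/choroid gave -0.22 to 0.21 for RT1-Ba, -0.48 to 0.12 for RT1-Bb, -0.21 to 0.27 for RT1-Da, -0.26 to 0.20 for RT1-Db1, -0.19 to 0.18 for RT1-DMa, -0.0050 to 0.30 for RT1-DMb, -0.53 to 0.14 for RT1-DOa, -0.29 to 0.22 for Cd74 and -0.18 to 0.21 for Ciita. Treated against aged RPE/choroid gave -0.92 to 0.13 for RT1-Ba, -0.89 to 0.15 for RT1-Bb, -0.93 to 0.036 for RT1-Da, -0.89 to 0.15 for RT1-Db1, -0.24 to 0.31 for RT1-DMa, -0.55 to 0.26 for RT1-DMb, -1.08 to 0.15 for RT1-DOa and -0.90 to 0.096 for Cd74. Treated against young RPE/choroid gave -0.91 to 0.14 for RT1-Ba, -1.0 to 0.040 for RT1-Bb, -0.85 to 0.11 for RT1-Da, -0.91 to 0.13 for RT1-Db1, -0.26 to 0.30 for RT1-DMa, -0.37 to 0.44 for RT1-DMb, -1.13 to 0.085 for RT1-DOa, -0.88 to 0.12 for Cd74 and -0.37 to 0.033 for Ciita.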

Other observations

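Genes of class I presentation, which share the interferon-responsive control of class II but have a transactivator of their own, also rose with age in retina. Of 10 listed and tested, 9 had an adjusted p under 0.05 in aged against young retina, all higher, where 7.29% of all genes were, and 8 in treated against young retina, again all higher, where 7.78% of all genes were. Nlrc5, the class I transactivator and a relative of Ciita, was at 1.0, 0.752 and 0.540 CPM in young, 3.74, 5.93 and 3.25 CPM in aged and 3.09, 4.56 and 2.40 CPM in treated retina, so that the groups of aged and treated libraries lay above the young one. It rose in aged retina by 2.5 on the log2 scale (standard error 0.34, edgeR adjusted p = 0.0013), while Ciita fell. B2m, the light chain of class I molecules, rose by 1.74, and the immunoproteasome subunit genes Psmb9 and Psmb8 by 2.12 and 2.08. Nlrc5 and Psmb9 had as few as 8 and 10 counts in young retina and entered through the older libraries. The counts of called genes are therefore descriptions. Against untreated aged retina 0 of the 10 passed in treated retina, and in RPE/choroid 0 of the 10 passed in each of the 3 comparisons.

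Other class II genes were measurable in RPE/choroid. RT1-DOb, the partner chain of RT1-DOa, was at 2.70 to 8.47 CPM in 8 libraries and at 0.342 CPM in treated library 1, and RT1-Db2 was at 0.466 to 1.74 CPM in all 9. None of the 3 found was called in the 3 comparisons.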
